A study of Homo sapiens with 24 samples.

Results

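The effect of deleting HAR123 was compared between undifferentiated human embryonic stem cells (hESCs) and the neuroectoderm made from them. The members were the 12 libraries of 2 genotypes, hHAR123 and HAR123-KO, at both stages, out of 24 libraries in the series, with 3 libraries per genotype and stage. For each gene the interaction was computed on the log2 scale as the HAR123-KO minus hHAR123 difference in neuroectoderm minus the same difference in hESCs, so that a positive value marks a gene whose HAR123-KO to hHAR123 ratio was larger in neuroectoderm. The comparison asks in which of these cell states loss of the element, studied for its part in early neural development, changes transcription.

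All 4 groups came from H9, an established hESC line. The hHAR123 cells carried the human element unchanged, and the HAR123-KO cells had lost it from both alleles through CRISPR-Cas9 editing. hESC libraries were labelled as untreated. Neuroectoderm (labelled ECTO) was made from cells of the same genotypes by 5 days in KnockOut DMEM with 10% knockout serum replacement, Noggin at 500 ng/ml, which binds BMP ligands, and SB431542 at 10 µM, which inhibits the receptors of activin, Nodal and TGF-beta. A pair of independent clones per genotype was sequenced in the study, and which library came from which clone, and whether the libraries of a group were separate cultures, was not given in the sources used here. The p-values therefore measure the spread between these libraries, and differences between clones cannot be told apart from the effect of the deletion. HAR123 is a noncoding element within an intron of SMG6, so counts over exons could not show the deletion itself.

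Human accelerated regions are conserved sequences that changed quickly on the human lineage, and many act as enhancers, which raise transcription of genes only in the cell states whose factors bind them. Neuroectoderm is the germ layer that forms the brain and spinal cord. When BMP signals are blocked it takes an anterior, forebrain character by default, while WNT, BMP and FGF signals at its edge induce the neural plate border and the neural crest, a migratory population that gives rise to peripheral neurons, glia and pigment cells.

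Total counts ranged from 23334732 to 35198684 in the 6 hESC libraries and from 21022748 to 24468989 in the 6 neuroectoderm libraries. These ranges overlap only through replicate 1 of the HAR123-KO hESCs (23334732). Every other hESC library, at 29406704 to 35198684 counts, was deeper than every neuroectoderm library. Mitochondrial genes held 4.02% to 4.10% of counts in hHAR123 and 4.40% to 4.48% in HAR123-KO hESCs, and 2.16% to 2.21% and 2.54% to 2.63% in neuroectoderm. This share was lower in neuroectoderm and, at both stages, higher in every HAR123-KO library than in every hHAR123 library, and its part in the results was not tested. Replicates differed by more than counting noise in all 12 within-group pairs (chi-square per degree of freedom 1.40 to 4.97). The labels were checked against markers. The summed level of 6 hESC markers (POU5F1, NANOG, LIN28A, TDGF1, DPPA4 and L1TD1) was 4910 to 5019 CPM (counts per 1000000 counts of the library) in hHAR123 hESCs, 4967 to 5106 in HAR123-KO hESCs, 1658 to 1759 in hHAR123 neuroectoderm and 1518 to 1554 in HAR123-KO neuroectoderm. The corresponding sums of 6 neuroectoderm markers (PAX6, SOX1, OTX2, LHX2, SIX3 and ZIC1) were 34.8 to 38.4, 29.4 to 30.7, 1053 to 1078 and 596 to 607 CPM. None of the 12 markers was at 0 in every library of a group, and both genotypes moved from the hESC to the neuroectoderm markers.

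Of 23113 genes tested, 1820 were called by the interaction (7.87%) in edgeR's quasi-likelihood test, at a Benjamini-Hochberg adjusted p under 0.01 and an absolute log2 value over 1. The interaction was higher for 888 genes (3.84%) and lower for 932 (4.03%), and its median over all genes tested was -0.0054. Among the called genes the absolute interaction had a median of 1.63 and quartiles of 1.25 and 2.38. Protein-coding genes made up 1387 of them, 9.08% of those tested, and long noncoding RNAs 288, or 6.30%.

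The stage dependence lay mostly on the neuroectoderm side. The genotypes differed in 244 genes in hESCs (1.06%; 187 higher and 57 lower in HAR123-KO) and 2111 in neuroectoderm (9.13%; 1086 higher and 1025 lower). Of the 1820 genes called by the interaction, 1354 (74.4%) differed between genotypes in neuroectoderm alone, 51 (2.80%) in hESCs alone, 15 at both stages in 1 direction and 14 at both stages in opposite directions. The remaining 386 (21.2%) passed the thresholds at neither stage singly, with a median absolute difference of 0.45 in hESCs and 0.83 in neuroectoderm. Across the 1820 genes the median absolute difference was 0.26 in hESCs against 1.42 in neuroectoderm, and the neuroectoderm difference was the larger for 1655 of them.

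**Figure D1:**
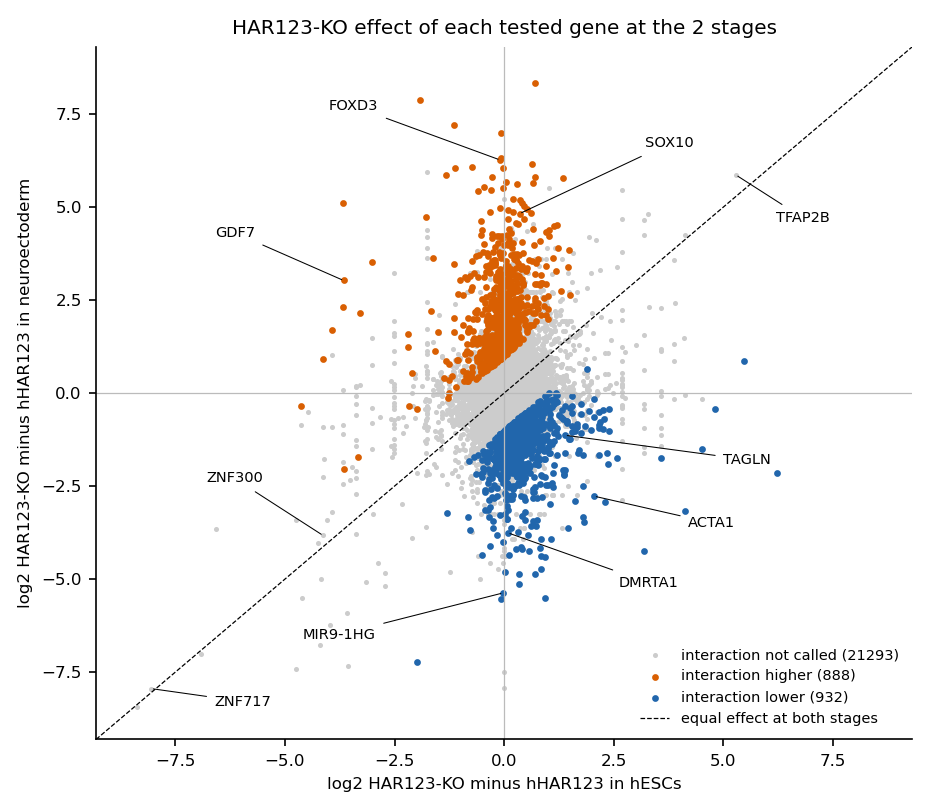
Each point is 1 of 23113 tested genes, with the log2 difference of HAR123-KO minus hHAR123 in hESCs on the horizontal axis and in neuroectoderm on the vertical axis. Orange and blue points are the 888 and 932 genes called higher and lower by the interaction; most lie in a vertical band near 0 in hESCs, and ZNF300 lies near the dashed line of equal effect. The hESC positions of ZNF717 and TFAP2B, with a group at or below 3 counts in every hESC library, depend on the prior count.

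A call at 1 stage alone was not in itself a difference between the stages. Of the 244 genes called in hESCs, 80 (32.8%) were also called by the interaction and 164 were not. Of the 2111 called in neuroectoderm, 1383 (65.5%) were also called by the interaction and 728 were not. The called genes were not only genes silent in hESCs: 1354 of the 1820 had a mean of at least 1 CPM in an hESC group, and in 11 both genotypes were at or below 3 counts in every hESC library. Of all 23113 genes tested, 16682 had a mean of at least 1 CPM in an hESC group, a similar share.

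The same interaction describes how the change from hESCs to neuroectoderm differed between genotypes. Among the 932 genes with a lower interaction, 256 rose from hESCs to neuroectoderm in hHAR123 and were not called in HAR123-KO, 212 fell in HAR123-KO and were not called in hHAR123, and 14 rose in hHAR123 but fell in HAR123-KO. In 166 the level rose in both genotypes and in 198 it fell in both, to a different extent. Among the 888 with a higher interaction, 258 fell in hHAR123 and were not called in HAR123-KO, 227 rose in HAR123-KO and were not called in hHAR123, and 36 fell in hHAR123 and rose in HAR123-KO. A further 137 rose in both genotypes and 158 fell in both.

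The neural crest and plate border genes called by the interaction were all called higher. Of 20 tested members of 21 listed, 15 had a higher and 0 a lower interaction, against 3.84% and 4.03% of all genes tested. The list's median interaction was 2.81, with 16 of the 20 values above 0 and 4 below 0. In neuroectoderm the difference itself was called higher in HAR123-KO for 17 members and lower for 2, and in hESCs higher for 3 and lower for 0. The summed level of the list was 240.3 to 246 CPM in hHAR123 hESCs, 260.5 to 263 in HAR123-KO hESCs, 338 to 344 in hHAR123 neuroectoderm and 2993 to 3019 in HAR123-KO neuroectoderm. No member was at 0 in every neuroectoderm library of a group; DLX6 was at 0 in both genotypes in hESCs, and TFAP2B in hHAR123 hESCs. In these bulk libraries more cells of a type and more RNA per cell cannot be told apart. The gene lists were chosen with earlier results of these data known. Counts and shares of this list and of the later ones are therefore descriptions, not tests.

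FOXD3 (ENSG00000187140, chr1:63322567-63325128, plus strand, GRCh38), a forkhead factor that specifies neural crest and is also transcribed in pluripotent cells, had opposite courses in the genotypes. Its level was 38.6, 37.4 and 41.4 CPM in hHAR123 hESCs, 37.5, 36.3 and 38.0 in HAR123-KO hESCs, 2.28, 2.69 and 2.52 in hHAR123 neuroectoderm and 188, 188 and 187 in HAR123-KO neuroectoderm. The genotypes overlapped in hESCs, and in neuroectoderm HAR123-KO was far above hHAR123. From hESCs to neuroectoderm FOXD3 changed by -4.25 on the log2 scale in hHAR123 and by 2.11 in HAR123-KO, and the interaction was 6.36 ± 0.085 (SE, adjusted p = 1.29e-46). ETS1 (ENSG00000134954, chr11:128458761-128587558, minus strand), an ETS-family factor of cranial crest, likewise fell in hHAR123 and rose in HAR123-KO, at 65.0, 65.0 and 66.9 CPM in hHAR123 hESCs, 75.7, 77.2 and 75.7 in HAR123-KO hESCs, 7.52, 8.02 and 7.13 in hHAR123 neuroectoderm and 211, 218 and 219 in HAR123-KO neuroectoderm. All HAR123-KO libraries were above all hHAR123 libraries at both stages, by 0.19 ± 0.036 in hESCs and 4.88 ± 0.049 in neuroectoderm. The stage change of ETS1 was -3.40 in hHAR123 and 1.28 in HAR123-KO, and the interaction 4.69 ± 0.064 (SE, adjusted p = 1.72e-46).

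SOX10 (ENSG00000100146, chr22:37970686-37987422, minus strand), which maintains crest cells and directs glial and pigment fates, rose in both genotypes, but to a much higher level in HAR123-KO. It was at 3.63, 3.98 and 3.52 CPM in hHAR123 hESCs, 4.8, 4.52 and 5.09 in HAR123-KO hESCs, 11.7, 11.7 and 12.3 in hHAR123 neuroectoderm and 329, 323 and 329 in HAR123-KO neuroectoderm. The interaction of SOX10 was 4.47 ± 0.12 (SE, adjusted p = 9.57e-34). PAX7, a paired-box factor of the plate border, was at 0.347, 0.151 and 0.312 CPM in hHAR123 hESCs, 0.343, 0.17 and 0.0303 in HAR123-KO hESCs, 1.85, 1.98 and 1.84 in hHAR123 neuroectoderm and 127, 121 and 125 in HAR123-KO neuroectoderm, which gave an interaction of 6.81 ± 0.56 (SE, adjusted p = 1.12e-14). SNAI2, a zinc-finger repressor active in crest delamination, was at 0.274 ± 0.146 CPM (SD, n = 3) in hHAR123 hESCs, 0.248 ± 0.132 in HAR123-KO hESCs, 2.15 ± 0.304 in hHAR123 neuroectoderm and 66.5 ± 0.866 in HAR123-KO neuroectoderm. The hESC levels of PAX7 and SNAI2 overlapped between genotypes and were under 1 CPM in every library, so their hESC differences had SEs of 0.48 and 0.43. ERBB3, the neuregulin receptor of crest and Schwann cells, was well measured in hESCs, at 82.0, 81.7 and 82.0 CPM in hHAR123 and 82.0, 83.4 and 81 in HAR123-KO. In neuroectoderm it was at 13.8, 13.9 and 15.9 CPM in hHAR123 and 196, 190.1 and 189.6 in HAR123-KO, an interaction of 3.79 ± 0.059 (SE, adjusted p = 7.00e-44).

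The other crest members called higher were TFAP2A (4.27), MSX2 (3.83), TFAP2C (3.36), MSX1 (2.84), CDH6 (2.77), NGFR (2.18), ZIC1 (1.84), SOX8 (1.76) and SOX9 (1.47), as log2 interactions. TFAP2A was at or below 3 counts in every HAR123-KO hESC library, so its fitted value depends on the prior count, and it was 2.5 (adjusted p = 0.405) without replicate 1 of the hHAR123 hESCs. ZIC1 was at 1.55 (adjusted p = 0.0131) without replicate 2 of the hHAR123 hESCs. TFAP2B and PAX3, which were called higher in HAR123-KO at both stages, were not called by the interaction (adjusted p = 0.598 and 0.232). Their interactions differed in sign, at 0.57 for TFAP2B and below 0 for PAX3. PAX3 was at 0, 0 and 0.0284 CPM in hHAR123 and 0, 0.17 and 0.394 in HAR123-KO hESCs, and at 87.0, 80.9 and 82.2 and 436, 432 and 422 in neuroectoderm. TFAP2B was at 0 in every hHAR123 hESC library and 0.129, 0.204 and 0.151 CPM in HAR123-KO hESCs, against 6.56, 5.83 and 6.15 and 347, 343 and 353 CPM in neuroectoderm.

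**Figure D2:**
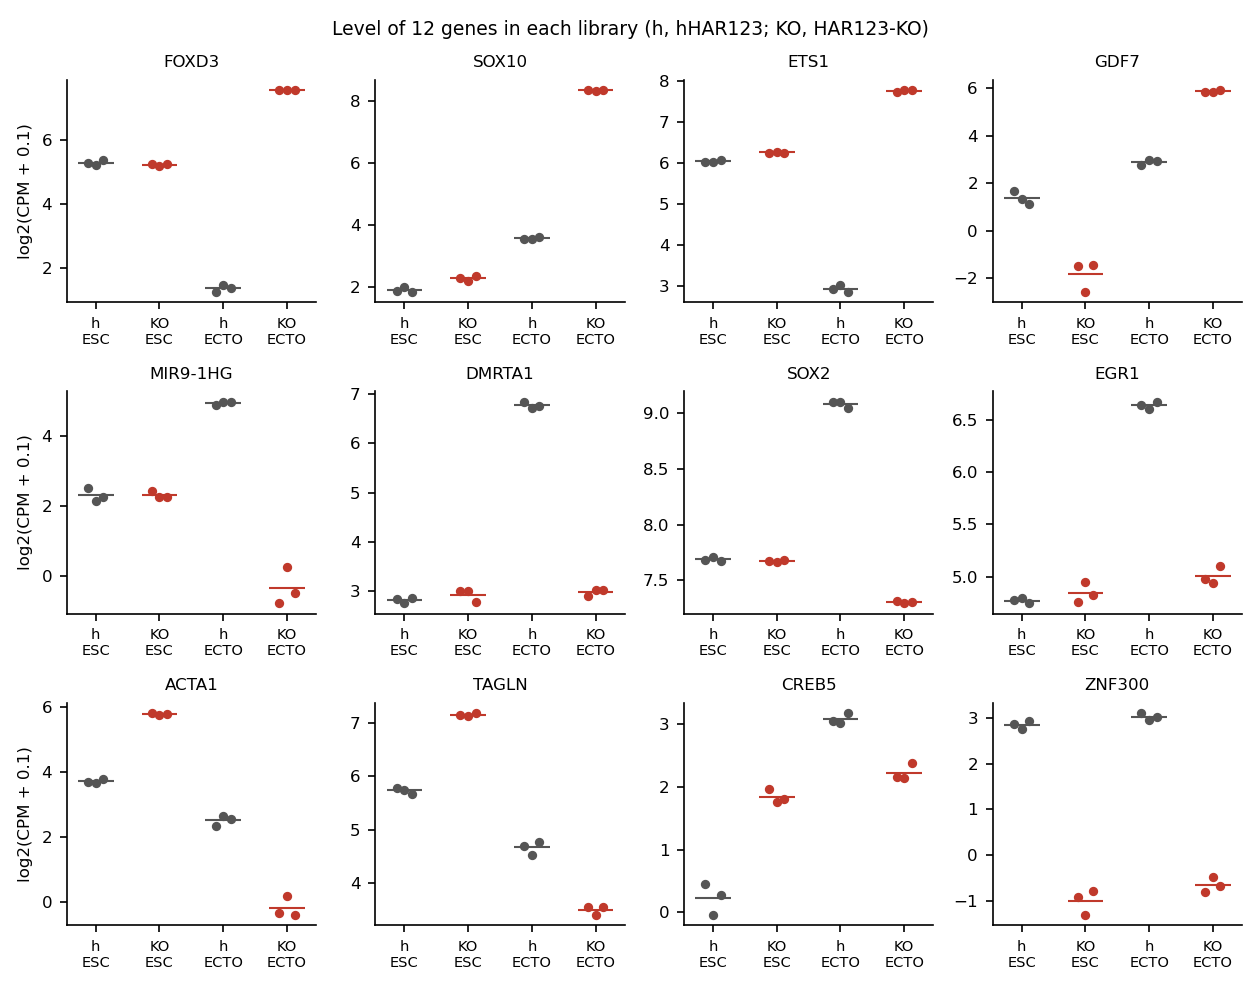
Points are single libraries of 12 genes on a log2(CPM + 0.1) axis that differs between panels, grey for hHAR123 and red for HAR123-KO, with a line at each mean. FOXD3, ETS1 and SOX10 separate the genotypes widely only in neuroectoderm, ACTA1 and TAGLN are higher in HAR123-KO hESCs and lower in HAR123-KO neuroectoderm, and ZNF300 is lower in HAR123-KO at both stages.

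Further genes with a large higher interaction encode matrix, membrane and signaling proteins. By the rule for named genes, the 12 highest interactions among genes at 1 CPM or more at each stage included, beside the crest factors, ADAMTS15, a matrix metalloprotease (5.01), EDNRA, the endothelin receptor of cranial crest (4.81), FMOD, a collagen-binding proteoglycan (4.70), COL11A2, a fibrillar collagen chain (4.59), SLC24A4, a sodium, calcium and potassium exchanger (4.43), LZTS1 (4.36) and SCN1A, a voltage-gated sodium channel (4.35). EDNRA was at 3.17 ± 0.178 CPM (SD, n = 3) in hHAR123 hESCs, 4.21 ± 0.366 in HAR123-KO hESCs, 3.81 ± 0.488 in hHAR123 neuroectoderm and 135 ± 2.42 in HAR123-KO neuroectoderm. LZTS1 fell from 23.3, 24.8 and 26.4 CPM in hHAR123 hESCs to 2.0, 1.98 and 2.26 in hHAR123 neuroectoderm, while in HAR123-KO it was at 22.3, 23 and 22.7 and 39.3, 34.5 and 38.8 CPM. FOXD3-AS1, which overlaps FOXD3 on the opposite strand, had an interaction of 5.53.

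Signaling genes of the dorsal neural tube and its border were also among the called genes. Among 10 tested WNT targets, 6 had a higher and 0 a lower interaction, with a median of 1.45, and all 10 values were above 0. With 1 library left out, the number called higher fell to as few as 4. RNF43, SP5 and LEF1 lost their calls in 11, 6 and 2 of 21 alternatives, which include the fits with 1 library left out. The adjusted p of SP5 was 0.217 without replicate 3 of the hHAR123 hESCs. NKD1, a feedback inhibitor of the WNT pathway, was at 20.2, 19.2 and 20.6 CPM in hHAR123 hESCs, 17.5, 17.4 and 18.1 in HAR123-KO hESCs, 27.8, 29.5 and 28.9 in hHAR123 neuroectoderm and 322, 319 and 310.4 in HAR123-KO neuroectoderm. For NKD1 the interaction was 3.71 ± 0.067 (SE, adjusted p = 3.26e-41). APCDD1, a membrane inhibitor of WNT, had an interaction of 4.02 ± 0.13 (SE, adjusted p = 2.36e-30), and AXIN2, the scaffold commonly used as a readout of beta-catenin activity, 1.98 ± 0.067 (SE, adjusted p = 1.15e-29). Among 18 tested WNT ligands and R-spondins, 3 were higher and 5 lower, or 3 lower without replicate 2 of the hHAR123 hESCs. WNT4 was at 0.959 ± 0.293 CPM (SD, n = 3) in hHAR123 hESCs, 0.884 ± 0.118 in HAR123-KO hESCs, 2.4 ± 0.349 in hHAR123 neuroectoderm and 38.3 ± 1.78 in HAR123-KO neuroectoderm. For WNT4 the interaction was 4.18 ± 0.27 (SE, adjusted p = 3.47e-18), and WNT3A, a ligand of the dorsal midline, had 3.94 ± 0.59 (SE, adjusted p = 2.37e-07). On the other side, WNT8B, a ligand of the forebrain's medial edge, had an interaction of -3.66 ± 0.25 (SE, adjusted p = 1.91e-17) and WNT5B, a ligand of the noncanonical branch, -2.06 ± 0.15 (SE, adjusted p = 1.64e-16). Of 22 tested receptors and antagonists of WNT, 3 were higher, led by FZD10 (2.52) and FZD8 (2.09), and 4 lower, led by FZD9 (-1.47) and SFRP1 (-1.29).

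BMP genes were divided. Of 25 tested ligands, receptors and antagonists, 6 were higher and 3 lower. GDF7, a BMP ligand of the roof plate (ENSG00000143869, chr2:20667144-20679243, plus strand), had the largest positive interaction of the genes at 1 CPM or more at each stage, 6.69 ± 0.26 (SE, adjusted p = 2.34e-27). Its level was 3.06, 2.44 and 2.1 CPM in hHAR123 hESCs, 0.257, 0.068 and 0.273 in HAR123-KO hESCs, 6.71, 7.69 and 7.43 in hHAR123 neuroectoderm and 56.0, 57.0 and 60.1 in HAR123-KO neuroectoderm. HAR123-KO was below hHAR123 in all hESC libraries and above it in all neuroectoderm libraries, with differences of -3.66 ± 0.27 and 3.02 ± 0.077. BMP4, the ligand that opposes neural fate, was higher in HAR123-KO at both stages, by 1.14 ± 0.13 and 4.49 ± 0.13, at 2.09 ± 0.364 CPM (SD, n = 3) in hHAR123 hESCs, 4.74 ± 0.496 in HAR123-KO hESCs, 0.936 ± 0.0951 in hHAR123 neuroectoderm and 20.4 ± 0.498 in HAR123-KO neuroectoderm. The lower members were BMP8B (-2.48), BMP6 (-2.38) and BMP8A (-2.18). BMP8A and BMP8B are near-identical copies between which reads could be divided, and BMP8A lost the call when any of 4 single libraries was left out (replicate 2 of HAR123-KO neuroectoderm, replicate 3 of HAR123-KO neuroectoderm, replicate 1 of HAR123-KO hESCs, replicate 3 of hHAR123 neuroectoderm), with adjusted p values of 0.0102 to 0.0255. Among 9 genes of the BMP response, 5 were higher and 1 lower, with MSX2 (3.83), MSX1 (2.84), ID3 (1.68), ID2 (1.54) and ID1 (1.36) against ID4 (-1.51). MSX1 and MSX2 are also members of the crest and plate border list and were counted there.

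Among 18 tested retinoic acid genes, 7 were higher and 1 lower. STRA6, the membrane receptor for retinol-binding protein, was at 12.1, 11.3 and 12.3 CPM in hHAR123 hESCs, 9.38, 9.96 and 10.3 in HAR123-KO hESCs, 5.18, 5.58 and 4.44 in hHAR123 neuroectoderm and 53.2, 51.9 and 53.0 in HAR123-KO neuroectoderm. It fell in hHAR123 (-1.52) and rose in HAR123-KO (2.19). For STRA6 the interaction was 3.71 ± 0.11 (SE, adjusted p = 2.86e-32). CRABP2, which carries retinoic acid to its nuclear receptors, was at 25.6, 24 and 26.1 CPM and 25.1, 23 and 25.1 CPM in hHAR123 and HAR123-KO hESCs, and at 50.4, 50.6 and 49.7 and 439, 436 and 427 in neuroectoderm. For CRABP2 the interaction was 3.23 ± 0.061 (SE, adjusted p = 1.67e-40). The member with a lower interaction was ALDH1A2, a retinaldehyde dehydrogenase, at 0.243 ± 0.115 CPM (SD, n = 3) in hHAR123 hESCs, 0.33 ± 0.114 in HAR123-KO hESCs, 1.29 ± 0.174 in hHAR123 neuroectoderm and 0.461 ± 0.0933 in HAR123-KO neuroectoderm and an interaction of -1.9. The genotypes overlapped in hESCs, and ALDH1A2 lost the call when any of 5 single libraries was left out (replicate 2 of HAR123-KO neuroectoderm, replicate 2 of HAR123-KO hESCs, replicate 3 of HAR123-KO hESCs, replicate 2 of hHAR123 neuroectoderm, replicate 3 of hHAR123 hESCs), with adjusted p values of 0.0122 to 0.0336. Without replicate 3 of the hHAR123 neuroectoderm, 2 retinoic acid genes were called lower.

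Midbrain, hindbrain and roof plate factors gave 5 higher and 3 lower of 17 tested, and in neuroectoderm 11 were called higher and 3 lower in HAR123-KO. Beside GDF7, LMX1B, a LIM homeobox factor of the midbrain and roof plate, had an interaction of 3.32 ± 0.33 (SE, adjusted p = 5.02e-12), at 0.524 ± 0.207 CPM (SD, n = 3) in hHAR123 hESCs, 1.25 ± 0.424 in HAR123-KO hESCs, 3.85 ± 0.00566 in hHAR123 neuroectoderm and 85.7 ± 4.32 in HAR123-KO neuroectoderm. The Iroquois factors IRX5, IRX3 and IRX1, which pattern the neural plate behind the forebrain, had interactions of 2.79, 1.65 and 1.15, and that of IRX1 was 0.95 (adjusted p = 0.0329) without replicate 3 of the hHAR123 hESCs. For WNT1 and EN1, both of the midbrain-hindbrain boundary, the neuroectoderm difference was called but the interaction was not: WNT1 was at 0 in all 3 hHAR123 hESC libraries and 0.0428, 0.068 and 0.0909 CPM in HAR123-KO hESCs, against 6.66, 8.06 and 7.64 and 136, 138 and 138 CPM in neuroectoderm. FGF8, a ligand of that boundary and of the anterior neural ridge, had a lower interaction, at -2.12 ± 0.37 (SE, adjusted p = 4.67e-06), as did EGR2, a hindbrain zinc-finger factor (-1.85), and PAX8. PAX8 lost the call when any of 4 single libraries was left out (replicate 3 of HAR123-KO neuroectoderm, replicate 1 of HAR123-KO hESCs, replicate 2 of hHAR123 hESCs, replicate 3 of hHAR123 hESCs), with adjusted p values of 0.0129 to 0.179.

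**Figure D3:**
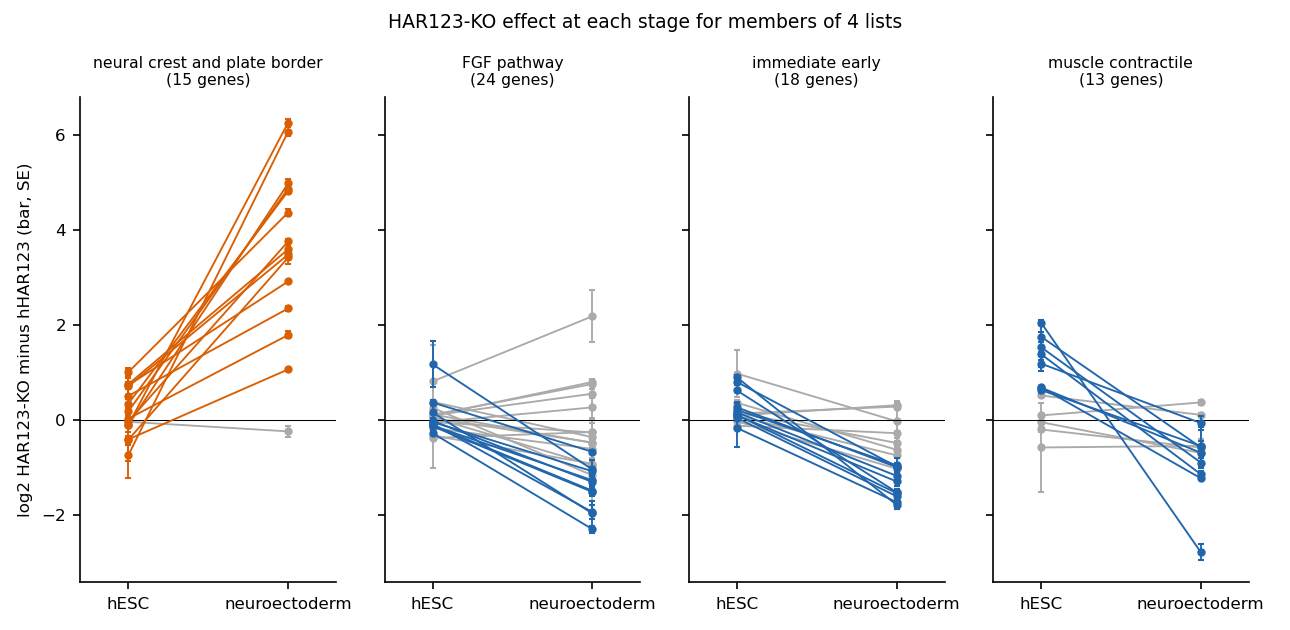
Each line joins the log2 difference of HAR123-KO minus hHAR123 of 1 gene in hESCs and in neuroectoderm, with SE bars, for members of 4 lists in which no group was at or below 3 counts in every library; orange and blue mark genes called higher and lower by the interaction. Most crest genes end far above their hESC value, the called FGF pathway and immediate early genes end below theirs, and the called contractile genes start above 0 and end below 0.

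Forebrain factors and genes of neural progenitors were called in the opposite direction. Of 17 tested forebrain and eye field factors, 0 had a higher and 5 a lower interaction, the median was -1.52, and 16 of the 17 values were below 0. The neuroectoderm difference was called lower for 11. Without replicate 2 of the HAR123-KO hESCs, 3 forebrain members were called by the interaction. The list's summed level was 48.6 to 52.1 CPM in hHAR123 and 38.9 to 40.5 in HAR123-KO hESCs, and 1958 to 1999 and 817 to 839.9 in neuroectoderm, with NKX2-1 at 0 in all 12 libraries. The summed neuroectoderm markers given above were lower in HAR123-KO in neuroectoderm as well, and their part in the result was not tested. FEZF1 (ENSG00000128610, chr7:122301303-122310691, minus strand), a zinc-finger factor of the anterior forebrain, was at 1.07, 1.75 and 1.82 CPM in hHAR123 hESCs, 0.943, 0.918 and 0.848 in HAR123-KO hESCs, 90.0, 89.5 and 87.5 in hHAR123 neuroectoderm and 8.96, 7.78 and 9.15 in HAR123-KO neuroectoderm. For FEZF1 the interaction was -2.51 ± 0.25 (SE, adjusted p = 3.31e-12). RAX, which specifies the eye field, had an interaction of -3.79 ± 0.66 (SE, adjusted p = 4.18e-06), at under 1 CPM in every hESC library.

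In some forebrain genes the hESC level was too low for a comparison of the stages. NR2E1, a nuclear receptor of neural stem cells, was at 25.3, 25.6 and 23.8 CPM in hHAR123 and 0.646, 0.499 and 0.45 in HAR123-KO neuroectoderm, and at no more than 3 counts in every hESC library. BARHL2, a homeobox factor of the diencephalon and retina, was at 12.8, 12.2 and 13.8 and 0.603, 0.832 and 0.531 CPM in neuroectoderm, with hESCs likewise at that floor. Their interactions were called (adjusted p = 0.00468 and 8.80e-04), but the calls rested on single libraries, with an adjusted p of 0.933 for NR2E1 without replicate 2 and 0.9998 for BARHL2 without replicate 1 of the HAR123-KO hESCs. PRSS56, a serine protease of eye growth and of crest-derived boundary cap cells, was such a gene in the other direction, at 0.285, 0.207 and 0.213 CPM in hHAR123 and 14.9, 15.9 and 14.8 in HAR123-KO neuroectoderm, and its interaction was 6.33 (adjusted p = 0.0421) without replicate 2 of the hHAR123 hESCs. The long noncoding RNAs PCA3, LINC00404 and LINC02593 were also at that floor in hESCs, and were at means of 3.22, 10.2 and 0.384 CPM in hHAR123 and 0.278, 2.94 and 4.41 in HAR123-KO neuroectoderm.

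The most negative interaction among genes at 1 CPM or more at each stage was that of MIR9-1HG (ENSG00000125462, chr1:156404250-156456763, minus strand), the host transcript of a miR-9 hairpin, a microRNA of neural progenitors. It was at 5.65, 4.34 and 4.69 CPM in hHAR123 hESCs, 5.27, 4.73 and 4.67 in HAR123-KO hESCs, 29.6, 32.0 and 31.7 in hHAR123 neuroectoderm and 0.474, 1.08 and 0.613 in HAR123-KO neuroectoderm. The host transcript rose in hHAR123 (2.39) and fell in HAR123-KO (-2.95), an interaction of -5.34 ± 0.20 (SE, adjusted p = 8.51e-28). MIR7-3HG, the host transcript of a miR-7 hairpin, was at 2.57, 2.56 and 2.86 CPM in hHAR123 and 0.0861, 0.25 and 0.164 in HAR123-KO neuroectoderm and at or below 3 counts in every hESC library, and its call was lost without replicate 1 of the HAR123-KO hESCs (adjusted p = 0.0101). The mature microRNAs were not measured here; their sequences are given because both hosts had a lower interaction, with the seed (bases 2 to 8) in capitals, from RefSeq on GRCh38.p14.
hsa-miR-9-5p: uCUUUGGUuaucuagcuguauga
hsa-miR-7-5p: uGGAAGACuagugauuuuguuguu
In MIR9-1 the first lies at chr1:156420392-156420414, minus strand, and in MIR7-3 the second at chr19:4770700-4770723, plus strand. The 2 seeds differ.

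DMRTA1, a DM-domain factor of cortical progenitors, was at 7.01, 6.62 and 7.19 CPM in hHAR123 hESCs, 7.88, 7.96 and 6.79 in HAR123-KO hESCs, 115, 105 and 108 in hHAR123 neuroectoderm and 7.41, 7.99 and 8.05 in HAR123-KO neuroectoderm, so the rise seen in hHAR123 (3.69) was not detected in HAR123-KO (-0.16). Its interaction was -3.85 ± 0.11 (SE, adjusted p = 1.26e-32). The other genes with the most negative interactions by the rule were ACTA1, described among the contractile genes, FAM107A, a gene of outer radial glia (-4.81), LRRC3B (-4.61), ST8SIA6, a sialyltransferase (-4.52), H1-1, a linker histone (-4.46), KCNQ3, a potassium channel (-4.04), ANKRD34B (-3.80), WNT8B, RASSF10 (-3.65) and COL12A1, a fibril-associated collagen (-3.45). KCNQ3 was at 6.57 ± 0.225 CPM (SD, n = 3) in hHAR123 hESCs, 8.31 ± 0.908 in HAR123-KO hESCs, 40.7 ± 1.54 in hHAR123 neuroectoderm and 2.98 ± 0.41 in HAR123-KO neuroectoderm. H1-1 did not rise in either genotype: it fell from 40.3, 40.4 and 37.5 CPM to 3.71, 3.14 and 3.16 in hHAR123 and from 43.6, 43.2 and 42.7 to 0.258, 0.125 and 0.0817 in HAR123-KO.

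SOX factors of the neural lineage, which act at different steps from progenitor to neuron, gave 0 higher and 4 lower of 7 tested. SOX2 (ENSG00000181449, chr3:181711925-181714436, plus strand), shared by pluripotent cells and neural progenitors, was at 205, 209.5 and 204 CPM in hHAR123 hESCs, 204, 202 and 206 in HAR123-KO hESCs, 549, 549 and 528 in hHAR123 neuroectoderm and 159, 157 and 158 in HAR123-KO neuroectoderm. The hESC levels overlapped (-0.041 ± 0.028), whereas in neuroectoderm every HAR123-KO library was below every hHAR123 library (-1.74 ± 0.029), an interaction of -1.69 ± 0.04 (SE, adjusted p = 3.90e-36). SOX1 and SOX21 had interactions of -1.77 ± 0.36 (SE, adjusted p = 5.84e-05) and -1.75 ± 0.21 (SE, adjusted p = 1.49e-09). Notch genes, which hold progenitors back from differentiation, gave 1 higher and 4 lower of 21, the lower led by DLL1 (-2.22, a ligand) and LFNG (-2.14, a glycosyltransferase that modifies the receptor), while HEY2, a target, was higher (1.25). Proneural and early neuronal genes were even, with 2 higher and 2 lower of 18: POU4F1, a factor of sensory neurons (3.06), and GAP43, a growth-cone protein (2.02), were higher, and NHLH2 (-1.76) and SYT1 (-1.37) lower.

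FGF signaling genes called by the interaction were all lower. Of 25 tested ligands, receptors and feedback genes, 0 had a higher and 11 a lower interaction (median -1.0). In hESCs 0 were called in either direction, a stage at which only 1.06% of all genes tested were called. In neuroectoderm 10 were called lower and 1 higher in HAR123-KO, the latter being FGF17 (2.19 on the log2 scale), a ligand whose interaction was not called (adjusted p = 0.303). ETV5 (ENSG00000244405, chr3:186046314-186110318, minus strand), an ETS factor induced by FGF through ERK, was at 51.9, 49.7 and 52.6 CPM in hHAR123 hESCs, 43.3, 44.3 and 42.5 in HAR123-KO hESCs, 27.8, 27.2 and 29.1 in hHAR123 neuroectoderm and 5.77, 5.66 and 5.27 in HAR123-KO neuroectoderm. It fell in both genotypes, with a log2 change of -1.16 in hHAR123 and -3.18 in HAR123-KO. For ETV5 the interaction was -2.02 ± 0.088 (SE, adjusted p = 4.24e-25). ETV4, its relative, was at 119, 119.9 and 117 CPM in hHAR123 hESCs, 114, 113 and 116 in HAR123-KO hESCs, 6.04, 5.99 and 6.7 in hHAR123 neuroectoderm and 1.16, 1.5 and 2.08 in HAR123-KO neuroectoderm. For ETV4 the interaction was -1.86 ± 0.15 (SE, adjusted p = 1.80e-15). The feedback inhibitors SPRY1, SPRY2, SPRED2 and SPRED3 had interactions of -1.38, -1.38, -1.28 and -1.15, and the ligands FGF9, FGF8 and FGF2 -2.21, -2.12 and -1.04. FGF12, an intracellular member of the family, was at -1.04, and at -0.99 (adjusted p = 1.59e-09) without replicate 2 of the HAR123-KO hESCs and -0.99 (adjusted p = 1.63e-09) without replicate 2 of the hHAR123 neuroectoderm. FGF4 was called as well, but was at 0 in all 3 HAR123-KO neuroectoderm libraries and at 0.0951, 0.248 and 0.0854 CPM in hHAR123; without replicate 2 of the hHAR123 neuroectoderm its adjusted p was 0.0151.

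Immediate early genes, the transcription factors and matrix signals induced within minutes by growth factors or stretch, gave 0 higher and 10 lower of 18 tested (median -1.21). None of the 18 was called in hESCs, where only 1.06% of all genes tested were called. In neuroectoderm 8 were called lower in HAR123-KO, where 9.13% of all genes tested were called in either direction. Their summed level was 587 to 609.5 CPM in hHAR123 and 746 to 754 in HAR123-KO hESCs, and 442 to 457 and 262 to 267 in neuroectoderm. EGR1 (ENSG00000120738, chr5:138465479-138469303, plus strand) was at 27.2, 27.7 and 26.7 CPM in hHAR123 hESCs, 27.0, 30.7 and 28.1 in HAR123-KO hESCs, 100.1, 97.4 and 102 in hHAR123 neuroectoderm and 31.4, 30.5 and 34.2 in HAR123-KO neuroectoderm, so it rose in hHAR123 (1.59) and was not called in HAR123-KO (-0.057). For EGR1 the interaction was -1.65 ± 0.071 (SE, adjusted p = 2.28e-25). CCN1, a secreted matrix protein and a target of YAP, was at 73.0, 73.5 and 71.8 CPM in hHAR123 hESCs, 140.3, 139 and 137 in HAR123-KO hESCs, 17.7, 20.2 and 19.0 in hHAR123 neuroectoderm and 4.61, 5.78 and 5.72 in HAR123-KO neuroectoderm. HAR123-KO was above hHAR123 in hESCs (0.91 ± 0.037, adjusted p = 2.08e-25, under the size threshold) and below it in neuroectoderm (-1.78 ± 0.081). CCN2 had the same signs, 0.63 ± 0.035 and -1.51 ± 0.068, and an interaction of -2.14 ± 0.076 (SE, adjusted p = 7.78e-29). FOS, JUN and MYC had interactions of -1.65 ± 0.11 (SE, adjusted p = 1.55e-17), -1.78 ± 0.091 (SE, adjusted p = 2.36e-22) and -1.39 ± 0.10 (SE, adjusted p = 4.59e-16).

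A smaller set of genes differed between the genotypes in hESCs. In some of these the genotypes also differed in neuroectoderm, in the opposite direction. Muscle contractile genes, which encode smooth and striated muscle actins and their partners and are also transcribed in spread, adherent cells, gave 0 higher and 8 lower of 14 tested (median -1.21). In hESCs 5 were called higher and 0 lower in HAR123-KO, and in neuroectoderm 0 higher and 3 lower. Their summed level was 872 to 890.3 CPM in hHAR123 and 1414 to 1450 in HAR123-KO hESCs, and 624 to 635 and 446 to 459.5 in neuroectoderm. ACTA1, the skeletal muscle actin (ENSG00000143632, chr1:229430365-229434104, minus strand), was at 12.7, 12.6 and 13.8 CPM in hHAR123 hESCs, 56.0, 53.8 and 55.5 in HAR123-KO hESCs, 4.95, 6.12 and 5.72 in hHAR123 neuroectoderm and 0.689, 1.04 and 0.654 in HAR123-KO neuroectoderm. Its difference changed sign, from 2.06 ± 0.059 to -2.77 ± 0.17, an interaction of -4.83 ± 0.17 (SE, adjusted p = 1.74e-28). TAGLN, an actin-binding protein of smooth muscle (ENSG00000149591, chr11:117199370-117207464, plus strand), did the same, at 55.1, 53.6 and 51.0 CPM in hHAR123 hESCs, 141, 139 and 146 in HAR123-KO hESCs, 25.8, 22.9 and 27.2 in hHAR123 neuroectoderm and 11.5, 10.4 and 11.6 in HAR123-KO neuroectoderm. The differences of TAGLN were 1.39 ± 0.041 in hESCs and -1.14 ± 0.07 in neuroectoderm, an interaction of -2.53 ± 0.081 (SE, adjusted p = 8.36e-31). TPM1, a tropomyosin, had 0.70 ± 0.028 and -1.22 ± 0.032.

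ACTG2 and ACTC1, the enteric smooth muscle and cardiac actins, were called in hESCs and not in neuroectoderm. ACTG2 was at 3.57, 3.82 and 3.35 CPM in hHAR123 and 12.9, 12.3 and 11.9 in HAR123-KO hESCs, and at 0.238, 0.413 and 0.427 and 0.172, 0.208 and 0.327 in neuroectoderm, where the genotypes overlapped. ACTC1 was at 17.6, 16.3 and 18.6 and 42.5, 42.2 and 37.8 CPM in hESCs and 4.71, 3.72 and 4.1 and 5.34, 3.41 and 2.94 in neuroectoderm. The interactions were -2.33 ± 0.46 (SE, adjusted p = 3.42e-05) and -1.25 ± 0.17 (SE, adjusted p = 1.31e-08). Actin genes have similar coding sequences, so reads shared between them are uncertain.

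Contractile and immediate early genes are textbook targets of serum response factor, which binds the CArG box, so the RefSeq promoters of their members were searched for that box (CC, then 6 A or T bases, then GG, a pattern that is the same on both strands) in the 250 bases before the start site. The motif was chosen after the values had been seen, and for lists already known to hold its targets. The counts below therefore cannot test a part of that factor. It was held by 394 of 27305 symbols with a RefSeq promoter (1.44%). Among matched members, it was held by 3 of 6 contractile genes called lower, 1 of 4 not called (MYL7), 1 of 7 immediate early genes called lower and 0 of 7 not called. Members without a matched promoter, TAGLN and MYL9 among them, were not searched. In all, 8 contractile and 10 immediate early genes had been called lower. The stretches of the members that were called and hold a box are shown, 5′ to 3′ on the gene's strand, with each box in capitals.
ACTA1: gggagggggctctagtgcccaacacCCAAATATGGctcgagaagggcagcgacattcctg
ACTC1: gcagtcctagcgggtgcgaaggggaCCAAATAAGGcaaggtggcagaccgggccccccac
ACTG2: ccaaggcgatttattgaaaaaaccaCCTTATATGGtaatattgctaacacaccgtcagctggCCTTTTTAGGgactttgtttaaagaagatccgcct
EGR1: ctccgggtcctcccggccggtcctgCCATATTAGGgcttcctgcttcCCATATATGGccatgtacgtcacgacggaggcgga
On GRCh38.p14 these are chr1:229434157-229434216 (minus strand), chr15:34795624-34795683 (minus), chr2:73892873-73892969 (plus) and chr5:138465349-138465430 (plus). The box began 97 bases before the start in ACTA1, 109 in ACTC1, 110 and 73 in ACTG2, and 105 and 83 in EGR1. A match is a description of these letters, and binding was not measured.

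Metallothioneins, small metal-binding proteins, gave 0 higher and 3 lower of 6 tested, with 4 called higher in HAR123-KO hESCs and 2 lower in HAR123-KO neuroectoderm. MT1X was at 4.54, 5.18 and 5.31 CPM in hHAR123 hESCs, 10.5, 9.52 and 10.0 in HAR123-KO hESCs, 2.33, 1.78 and 1.88 in hHAR123 neuroectoderm and 0.732, 0.791 and 0.858 in HAR123-KO neuroectoderm. For MT1X the interaction was -2.24 ± 0.24 (SE, adjusted p = 3.57e-11). MT1F was at 1.82 ± 0.219 CPM (SD, n = 3) in hHAR123 hESCs, 4.08 ± 0.376 in HAR123-KO hESCs, 1.22 ± 0.136 in hHAR123 neuroectoderm and 1.05 ± 0.33 in HAR123-KO neuroectoderm. MT1E was at 0.253, 0.211 and 0.625 CPM in hHAR123 and 1.03, 1.09 and 1.33 in HAR123-KO hESCs, at 0.238, 0.289 and 0.213 in hHAR123 neuroectoderm, and at or below 3 counts in every HAR123-KO neuroectoderm library. The family's copies are near-identical and the split of reads between them is uncertain.

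Genes called in hESCs and by the interaction but not in neuroectoderm, at 1 CPM or more in some group, numbered 38, of which 32 were higher and 6 lower in HAR123-KO hESCs. MIR4435-2HG and CYTOR, long noncoding RNAs from near-identical copies between which reads could be divided, had hESC differences of 1.84 ± 0.071 and 1.65 ± 0.087 and interactions of -2.74 ± 0.17 (SE, adjusted p = 2.80e-19) and -2.58 ± 0.23 (SE, adjusted p = 7.33e-14). CREB5, a transcription factor of the CREB family, was at 1.26, 0.873 and 1.11 CPM in hHAR123 hESCs, 3.81, 3.3 and 3.39 in HAR123-KO hESCs, 8.18, 8.06 and 8.97 in hHAR123 neuroectoderm and 4.39, 4.33 and 5.11 in HAR123-KO neuroectoderm. For CREB5 the interaction was -2.48 ± 0.20 (SE, adjusted p = 5.92e-15). In neuroectoderm every HAR123-KO library of CREB5 was below every hHAR123 library, so both stages entered its interaction. Over all 51 genes called by the interaction and in hESCs alone, the median absolute difference was 1.29 in hESCs and 0.45 in neuroectoderm.

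Less abundant genes of this kind were TRPM2, a calcium channel (2.24 ± 0.28 in hESCs), ANXA1, an annexin (2.04 ± 0.28), TRIM58 (1.89 ± 0.22), and, in the other direction, CAMK1G, a calmodulin-dependent kinase (-2.18 ± 0.39), and NKAIN2 (-2.0 ± 0.32). The interaction of TRPM2 was -2.12 (adjusted p = 0.0201) without replicate 2 of the hHAR123 neuroectoderm, that of ANXA1 -1.42 (adjusted p = 0.0752) without replicate 2 of the hHAR123 neuroectoderm, that of TRIM58 -1.07 (adjusted p = 0.0115) without replicate 2 of the HAR123-KO neuroectoderm and -1.13 (adjusted p = 0.014) without replicate 2 of the hHAR123 neuroectoderm, and that of NKAIN2 1.33 (adjusted p = 0.0125) without replicate 1 of the HAR123-KO hESCs and 1.36 (adjusted p = 0.0114) without replicate 3 of the hHAR123 hESCs. CAMK1G was at 0.978, 0.482 and 0.625 CPM in hHAR123 and 0.129, 0.17 and 0.151 in HAR123-KO hESCs, and at 6.28, 7.07 and 5.76 and 5.17, 4.7 and 4.74 in neuroectoderm. NCR1, a receptor of natural killer cells, was at 1.2, 0.873 and 1.05 and 3.09, 2.99 and 2.7 CPM in hESCs and at or below 3 counts in every neuroectoderm library, so that its stages could not be compared, and the call was lost when any of 10 of the 12 libraries was left out, with adjusted p values of 0.01 to 0.047, the exceptions being replicate 1 of the hHAR123 hESCs and replicate 3 of the hHAR123 neuroectoderm.

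Among the 14 genes called at both stages in opposite directions, 11 had a symbol and at least 1 CPM in some group. HAR123-KO was higher in hESCs and lower in neuroectoderm in 8 of them, ACTA1, TAGLN and MT1E included. PDGFB, a growth factor for mural cells, was at 9.44, 9.28 and 10.0 CPM in hHAR123 hESCs, 21.4, 22.1 and 20.9 in HAR123-KO hESCs, 2.76, 3.02 and 3.07 in hHAR123 neuroectoderm and 0.948, 0.458 and 0.858 in HAR123-KO neuroectoderm, with differences of 1.14 ± 0.074 and -1.93 ± 0.20. KLHDC8A was at 2.15, 1.45 and 1.68 CPM in hHAR123 hESCs, 4.24, 3.3 and 3.45 in HAR123-KO hESCs, 132, 140.4 and 138 in hHAR123 neuroectoderm and 45.6, 41.6 and 43.7 in HAR123-KO neuroectoderm, with respective differences of 1.02 ± 0.14 and -1.61 ± 0.047. Although KLHDC8A rose in both genotypes, the genotypes exchanged order. ANXA3, an annexin, and DUSP8, a phosphatase of MAP kinases, had hESC differences of 1.22 ± 0.069 and 1.04 ± 0.18 and neuroectoderm differences of -1.17 ± 0.15 and -1.31 ± 0.12. DNAAF1, an assembly factor of ciliary dynein, was at or below 3 counts in every hHAR123 hESC library and at 0.3, 0.442 and 0.242 CPM in HAR123-KO hESCs, against 1.71, 1.36 and 2.31 and 0.603, 0.624 and 0.49 CPM in neuroectoderm.

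The reverse order was found in 3 genes. Beside GDF7, these were ADRA2A, an adrenergic receptor, at 3.0, 2.56 and 2.84 CPM in hHAR123 hESCs, 1.59, 1.39 and 1.21 in HAR123-KO hESCs, 0.761, 1.2 and 0.769 in hHAR123 neuroectoderm and 6.76, 4.79 and 5.39 in HAR123-KO neuroectoderm, and OPTC, a small proteoglycan of the eye, at 1.3 ± 0.247 CPM (SD, n = 3) in hHAR123 hESCs, 0.646 ± 0.0701 in HAR123-KO hESCs, 0.132 ± 0.045 in hHAR123 neuroectoderm and 1.07 ± 0.419 in HAR123-KO neuroectoderm. Their interactions were 3.70 ± 0.26 (SE, adjusted p = 5.51e-17) and 4.04 ± 0.52 (SE, adjusted p = 5.99e-09), and the genotypes did not overlap at either stage in either gene.

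Some genes were called in the same direction at each stage. At both stages in 1 direction 77 genes were called, and 62 of these were not called by the interaction, 33 higher and 29 lower in HAR123-KO. ZNF300, a KRAB zinc-finger repressor (ENSG00000145908, chr5:150894392-150904983, minus strand), was at 7.2, 6.59 and 7.53 CPM in hHAR123 hESCs, 0.428, 0.306 and 0.485 in HAR123-KO hESCs, 8.47, 7.64 and 7.94 in hHAR123 neuroectoderm and 0.474, 0.624 and 0.531 in HAR123-KO neuroectoderm, differences of -4.13 ± 0.18 and -3.83 ± 0.18, and an interaction of 0.31 ± 0.35 (SE, adjusted p = 0.521). ZNF717, another KRAB zinc-finger gene that has near-identical copies in the genome, was at 14.7, 16.2 and 17.9 CPM in hHAR123 hESCs, 0.0428, 0.034 and 0.0909 in HAR123-KO hESCs, 30.3, 27.7 and 30.7 in hHAR123 neuroectoderm and 0.0431, 0.208 and 0.0817 in HAR123-KO neuroectoderm; every HAR123-KO library held less than 1 CPM. HAR123-KO was at or below 3 counts in every hESC library, so the fitted interaction of ZNF717 depends on the prior count (adjusted p = 0.921). ZNF572, DNAJA4 (a co-chaperone) and F2RL2 (a thrombin receptor) were also called lower at both stages. In hESCs ZNF572 and DNAJA4 were at means of 0.51 and 1.94 CPM in hHAR123 and 0.0227 and 0.0958 in HAR123-KO, and in neuroectoderm F2RL2 was at 7.75, 5.54 and 7.6 CPM in hHAR123 and 0.56, 0.624 and 0.695 in HAR123-KO. A p above the threshold does not show that the effect was equal at the stages.

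Pluripotency genes were not called in hESCs in either direction, 0 of 16 tested, against 1.06% of all genes tested. At that share a count of 0 in a list this short says little. By the interaction 2 were higher and 3 lower, against 3.84% and 4.03% of all genes tested. L1TD1, an RNA-binding protein of hESCs, was at 820.3, 829 and 842 CPM in hHAR123 hESCs, 779, 803 and 805 in HAR123-KO hESCs, 9.99, 8.02 and 8.5 in hHAR123 neuroectoderm and 55.3, 61.5 and 56.9 in HAR123-KO neuroectoderm. It fell by less in HAR123-KO (-4.0) than in hHAR123 (-6.85), an interaction of 2.85 ± 0.063 (SE, adjusted p = 1.52e-37). ZFP42, the stem-cell marker REX1, had 1.64 ± 0.083 (SE, adjusted p = 1.11e-22). POU5F1 and NANOG, the core factors, did not share that course: their neuroectoderm means were 15.4 ± 0.933 and 1.26 ± 0.199 CPM (SD, n = 3) in hHAR123 and 10.4 ± 0.475 and 0.838 ± 0.0922 in HAR123-KO. The interactions of POU5F1 and NANOG were -0.39 ± 0.066 (SE, adjusted p = 2.76e-06) and -0.48 ± 0.22 (SE, adjusted p = 0.0984). UTF1 (-2.0), SOX2 and SALL4 (-1.03) had the lower interactions.

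Genes of cell contact, matrix and guidance were called in both directions. Of 39 collagens, 8 were higher, led by COL11A2 and COL5A3 (4.23), and 3 lower, led by COL12A1 and COL11A1 (-1.10). COL1A2, a chain of type I collagen, was at 90.4 ± 1.92 CPM (SD, n = 3) in hHAR123 hESCs, 95.4 ± 2.3 in HAR123-KO hESCs, 81.8 ± 2.58 in hHAR123 neuroectoderm and 581 ± 14.4 in HAR123-KO neuroectoderm. For COL1A2 the interaction was 2.82 ± 0.047 (SE, adjusted p = 7.96e-43). Matrix proteases gave 8 higher and 2 lower of 27 (1 lower without replicate 1 of the hHAR123 or replicate 3 of the HAR123-KO hESCs, and in DESeq2), the higher led by ADAMTS15 and MMP17 (4.17), and laminins and integrins 3 higher and 5 lower of 28, from ITGA9 (2.65) and ITGA4 (2.48, a fibronectin receptor of migrating crest) to LAMA3 (-2.33). Classical cadherins gave 2 higher and 4 lower of 18, with CDH6, a crest cadherin, at 2.77 and CDH7 and CDH8 at -2.48 and -2.39. The cadherins called higher fell to 1, with CDH9 losing its call, without replicate 1 or 3 of the hHAR123 hESCs or replicate 1 or 3 of the HAR123-KO hESCs (adjusted p of 0.0144 to 0.386). Axon guidance genes gave 10 higher and 4 lower of 51. The netrin receptor UNC5C (4.05) and the ephrin receptor EPHA6 (3.92) led the higher ones, NTN4 (-2.07) and EPHA2 (-1.62) the lower. NRP2, the semaphorin receptor of migrating crest, was at 37.8, 34.2 and 34.4 CPM in hHAR123 hESCs, 44.4, 40.5 and 40.9 in HAR123-KO hESCs, 38.3, 39.5 and 41.2 in hHAR123 neuroectoderm and 510.5, 512 and 515 in HAR123-KO neuroectoderm. Glutamate and GABA receptors gave 4 higher and 5 lower of 29, with GRIK3, a kainate receptor, at -3.18 and GRIK2 at 1.96.

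Surface ectoderm and placode genes gave 3 higher and 0 lower of 15 (median -0.01), or 1 higher without replicate 3 of the hHAR123 hESCs. Mesoderm genes gave 2 higher, PDGFRA (2.15) and KDR (1.32), and 0 lower of 8. Extraembryonic genes gave 2 higher and 1 lower of 5, among them KRT7, a keratin also in the surface ectoderm list (2.39), and GATA2, a trophoblast and blood factor (-3.39). The other member called higher, GATA3, lost its call without any of 9 of the 12 libraries, with adjusted p values of 0.0111 to 0.117, which left 1 higher. The exceptions were replicate 2 of the hHAR123 hESCs, replicate 3 of the HAR123-KO hESCs and replicate 1 of the HAR123-KO neuroectoderm. T-box factors gave 1 higher of 5, TBX15 (1.14). For endoderm, 0 of 5 tested were called, and none of the 39 HOX genes passed the filter on low counts. Hedgehog genes gave 1 higher, HHIP (2.5), and 1 lower, PTCH1 (-2.14), of 11, or 2 higher without replicate 3 of the hHAR123 hESCs or replicate 2 of the hHAR123 neuroectoderm. Nodal and activin genes gave 0 higher and 1 lower of 14, LEFTY1, a Nodal inhibitor (-2.16), which was at -1.77 (adjusted p = 0.0169) without replicate 3 of the HAR123-KO neuroectoderm and -1.69 (adjusted p = 0.0551) without replicate 3 of the hHAR123 neuroectoderm. In that list 1 member was called higher without replicate 3 of the hHAR123 hESCs, replicate 2 of the HAR123-KO hESCs or replicate 1 of the hHAR123 neuroectoderm. ATF4 targets gave 1 higher of 22, SLC7A11, the cystine transporter (2.79), and glycolysis genes 1 lower of 22, SLC2A1, the glucose transporter (-1.06), or 2 lower without replicate 1 of the hHAR123 hESCs or of the HAR123-KO neuroectoderm. The shares called in either direction were 7.14% for Nodal and activin genes and 4.55% for both ATF4 targets and glycolysis genes. These do not exceed the 7.87% of all genes tested. None was called among 29 cell cycle genes (median 0.22), 22 sterol and fatty acid genes (0.37), 19 nonsense-mediated decay factors (0.066), 13 mitochondrially encoded genes (0.19) or 12 heat shock genes (0.073). In that order, 27, 19, 12, 12 and 7 of the values were above 0. At the 7.87% of all genes tested, lists this short would hold few calls, so their counts of 0 say little. The sterol and fatty acid genes summed to 7200 to 7242 CPM in hHAR123 and 7292 to 7439 in HAR123-KO hESCs. In neuroectoderm they summed to 2772 to 2794 and 3604 to 3666 CPM.

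**Figure D4:**
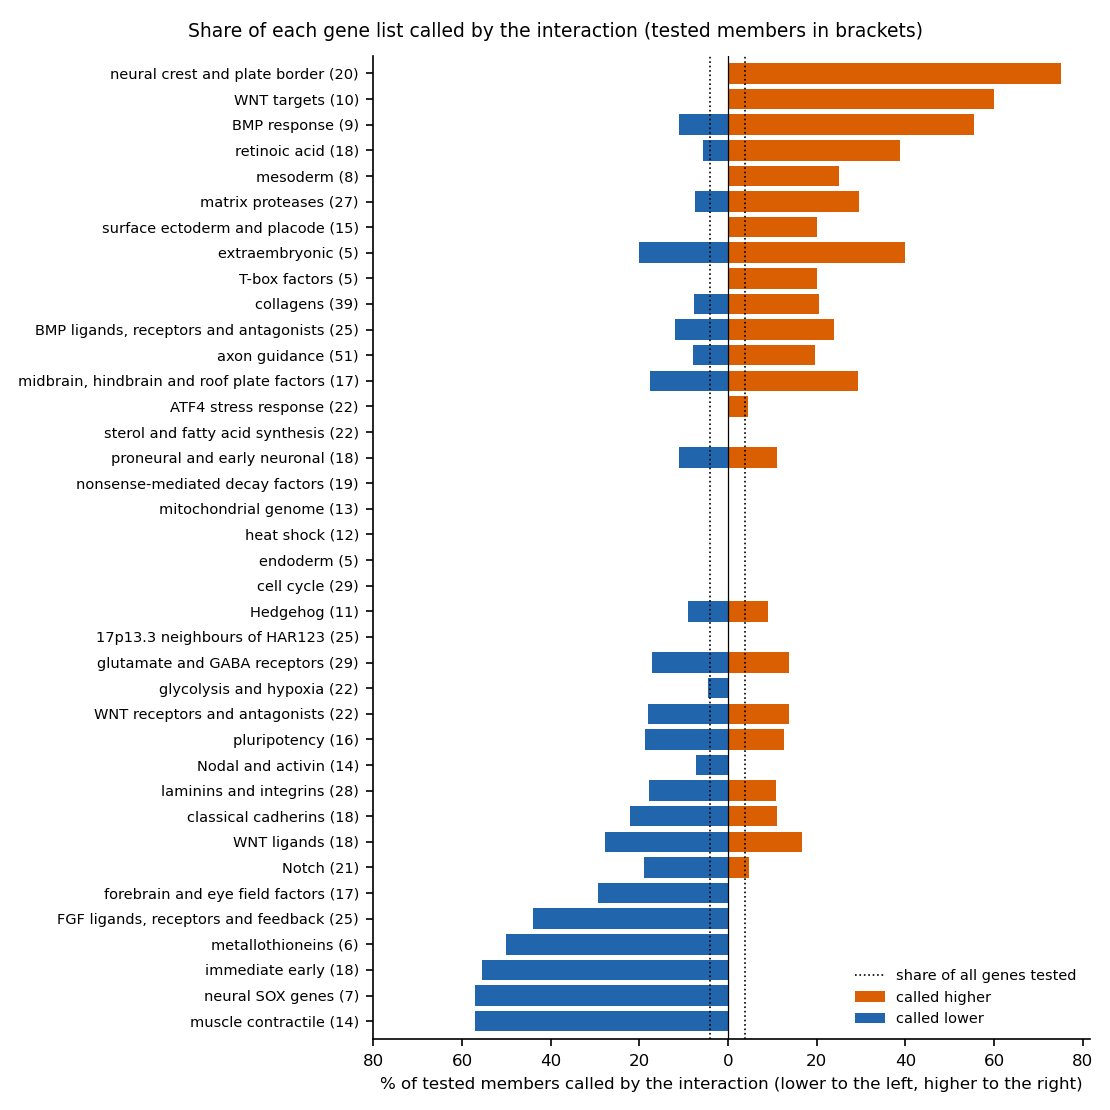
Bars give the share of the tested members of each list called higher (orange, to the right) or lower (blue, to the left) by the interaction, with dotted lines at the shares over all genes tested, 3.84% and 4.03%. Crest genes and WNT targets stand at the top, and contractile, neural SOX and immediate early genes at the bottom.

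Genes around the deleted element were examined as a list. Of 25 tested genes of 17p13.3, 0 were called by the interaction and 0 in hESCs, and 1, HIC1, was lower in HAR123-KO in neuroectoderm. Over all genes tested the shares called in either direction were 7.87%, 1.06% and 9.13%. In a list of 25 genes these counts do not set the region apart. Without replicate 1 of the HAR123-KO neuroectoderm, and with library totals in place of TMM scaling, 1 of the 25 was called lower by the interaction. In neither case was this HIC1, whose interaction was not called in any of the 21 alternatives. SMG6, a nuclease of nonsense-mediated decay whose intron held HAR123 (ENSG00000070366, chr17:2059839-2303785, minus strand), was at 77.1, 79.5 and 78.6 CPM in hHAR123 hESCs, 70.5, 71.8 and 71.0 in HAR123-KO hESCs, 149.6, 152 and 144 in hHAR123 neuroectoderm and 184, 182 and 170.1 in HAR123-KO neuroectoderm. Its interaction was 0.47 ± 0.049 (SE, adjusted p = 2.02e-11), past the p threshold and under the size threshold, with HAR123-KO lower in hESCs (-0.17 ± 0.036) and higher in neuroectoderm (0.30 ± 0.033). HIC1, a transcriptional repressor (ENSG00000177374, chr17:2054154-2063241, plus strand), was at 0.284, 0.301 and 0.142 CPM in hHAR123 hESCs, 0.171, 0.272 and 0.212 in HAR123-KO hESCs, 1.95, 1.16 and 1.2 in hHAR123 neuroectoderm and 0.603, 0.458 and 0.531 in HAR123-KO neuroectoderm. For HIC1 the interaction was -1.23 ± 0.59 (SE, adjusted p = 0.0922). HIC1 overlaps the 3′ end of SMG6 on the opposite strand, and since the strand setting of the counting was not stated, reads of the pair may not be told apart. The same limit holds, among others, for FOXD3 with FOXD3-AS1, SOX10 with POLR2F, FEZF1 with FEZF1-AS1, SOX21 with SOX21-AS1, ETV4 with DHX8, TAGLN with PCSK7, DLL1 with FAM120B, WNT5B with FBXL14 and ITGA9 with ITGA9-AS1. It weighs most on genes whose overlapping partner had far more counts. HIC1 was such a gene, with a mean count of 14.8 over the 12 libraries against 3081 for SMG6. The mean count over the 12 libraries was 16.5 for DNAAF1 against 1736 for TAF1C, 44.2 for F2RL2 against 1967 for IQGAP2, 17.9 for DNAJA4 against 768 for SKIC8, 20.7 for PCA3 against 1287 for PRUNE2, 33.7 for BMP8B against 842 for PPIE, 19.8 for BMP8A against 394 for PPIEL, 54.2 for BMP6 against 193 for TXNDC5 and 351 for MIR4435-2HG against 1083 for BCL2L11, so the values of these genes are uncertain.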

How the data were processed

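Ribosomal RNA was depleted and directional libraries were sequenced as paired ends. Per the labels and methods, STAR 2.5.2b placed reads on GRCh38 with the Ensembl 106 annotation and featureCounts tallied them by gene. The authors deposited these counts without normalization, and the strand setting was not stated. The entry of ANK2, broken over 3 lines, was dropped. This left 61551 genes, of which 61398 were found in GENCODE 44. Here counts of 12 libraries were fitted in R 4.3.3 with edgeR 4.0.16 (1 mean per group, filterByExpr, TMM, quasi-likelihood F test, Benjamini-Hochberg adjustment over 23113 genes), after tests on simulated data. CPM are counts per 1000000 counts of the library, and SE is the log2 value divided by the square root of F. A group was at the floor at 3 counts or fewer in every library; such values cover counting error only. DESeq2 1.42.0 was an alternative. Python 3.11.15 made the tables.

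The rule, the 39 gene lists and the tests were chosen with earlier results of these data known. Named were the 12 largest interactions per direction among genes at 1 CPM or more at each stage, the largest of the floor, opposite, hESC-only and shared classes, and 2 per list and direction; other list members were named after their values were seen. Some genes that the rule selected are not reported here. Replicate numbers were shared across groups, but the deviations of same-numbered libraries correlated at -0.16 to 0.09 (0 of 18 over 0.1), so they were not treated as pairs. Libraries of the other genotypes entered only an alternative fit of all 24.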

Additional observations from a re-analysis of the deposited data

Results flagged for a closer look

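The HAR123-KO effect differed between hESCs and neuroectoderm, by the interaction test itself, in 1820 genes, 888 higher and 932 lower. In 14 genes the genotypes differed at both stages in opposite directions, with HAR123-KO higher in hESCs in 10 and lower in 4. Groups of 3 libraries were too small for a test of single outlying libraries.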

How the results depend on the processing

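Counts of genes called by the interaction and at each stage, by stage class and by list were recomputed under 9 other settings and with each of 12 libraries left out; counts by course, biotype or CArG box and the stage calls per list were not. A test against a log2 difference of 1, which is stricter by construction, gave 379 genes higher and 281 lower by the interaction, 50 called in hESCs and 970 in neuroectoderm; by class these were 556 in neuroectoderm alone, 6 in hESCs alone, 1 at both in 1 direction, 2 at both in opposite directions and 95 at neither. DESeq2 called 161 genes in hESCs. At an adjusted p under 0.05 the class of hESCs alone held 83 genes and that of opposite directions 30, and with counts thinned to the smallest library the latter held 9. With 1 library left out, the genes called higher ranged from 831 to 892, those called lower from 875 to 910, those called in hESCs from 218 to 257 and those in neuroectoderm from 2027 to 2171, and the opposite class from 10 to 16; without replicate 1 of the HAR123-KO hESCs 863 were higher and 875 lower. DESeq2 called 1556 genes by the interaction, of which 1525 were among the 1820. With library totals in place of TMM the median over all genes was -0.0716 and 42.6% of calls were higher, against 48.8%. The replicate block (a paired fit by number) called 873 higher and 905 lower, 1774 of them among the 1820; the numbers did not pair the libraries.

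Of 224 called genes named or in a list, 134 kept their call under all 21 alternatives that gave a value and 90 lost it under 1 or more, 89 of these under the test against 1; none of the 224 changed sign. Among genes not called, the interaction of ZNF717 (0.10) was -1.09 with thinned counts and ranged from -0.67 to 0.68 with 1 library left out, and that of ZNF572 (0.22) ranged from -0.37 to 2.91 with 1 library left out and was 3.03 with thinned counts. SIX3 and NCR1 were called at adjusted p values of 0.00933 and 0.0092 and lost the call under most alternatives.

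Genes under 1 CPM in hESCs limit what can be said of stage, since a count of 0 allows up to 3 counts, or 0.085 to 0.14 CPM. Depth differed between libraries, and thinning to 1 depth kept 1594 of the 1820 calls.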

Other observations

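Over 10899 genes at 5 CPM or more, the median interaction of each of 23 chromosomes lay between -0.05 and 0.17, the median HAR123-KO effect in hESCs between -0.04 and 0.0090, and that in neuroectoderm between -0.04 and 0.12.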
